A study of Mus musculus with 2 samples.

Results

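Molecular chaperones were examined in ATDC5, a chondrogenic mouse cell line. The set covered the HSP90, HSP70, HSP110, DNAJ, small heat shock protein (HSPB), BAG and chaperonin genes. Members were picked by a rule on gene symbols. The rule found 203 of 45037 probe sets, which represent 84 of 18193 genes. A probe set is the group of short probes that reads a transcript on an Affymetrix array, and the brightest probe set, by mean signal over both arrays, stood for its gene. Hsp90ab1 and Hsf1, which the rule also names, were not analysed here.

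There were 2 arrays, both of total RNA from serum-starved cells given cycloheximide (CHX), a blocker of translation, at 10 µg/ml for 30 min. The CHX+PBS group, with 1 array, then received PBS for 30 min. The CHX+Nell-1 group, also with 1 array, received recombinant human Nell-1, a secreted osteoinductive protein, at 100 ng/ml for 30 min. CHX was present in both groups, so the comparison asks which transcripts differ after Nell-1 while new protein synthesis is blocked, and it does not measure an effect of CHX itself. Neither group has a replicate, so a ratio compares 2 RNA samples, no test was run, and no error between cultures can be given. Values are bulk signals, in which fewer cells making a transcript and less transcript per cell cannot be told apart.

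Chaperones help other proteins fold. HSP70 proteins bind exposed hydrophobic stretches in a cycle driven by ATP, DNAJ proteins (also called HSP40s) deliver substrates and start ATP hydrolysis, and nucleotide exchange factors of the HSP110 and BAG families release them. HSP90 proteins mature kinases and hormone receptors, and the ring-shaped chaperonins enclose a protein while it folds: CCT in the cytosol for actin and tubulin, HSP60 with HSP10 in mitochondria. Many of these genes are switched on by the transcription factor HSF1 when unfolded protein accumulates, through heat shock elements made of alternating GAA and TTC units. Chaperones of the endoplasmic reticulum (ER) are instead controlled largely by the unfolded protein response, through the ER stress element. Chondrogenic cells secrete large amounts of matrix protein, which passes through the ER.

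The promoters below carry the 2 kinds of element and belong to members whose values are given further on. RefSeq windows from 250 bases before to 50 bases after the start site (build GRCm38.p6) were matched by gene ID for 69 of the 84 members. The other members, among them Hsp90aa1 and Hspa8, had no matched window and were not searched. Capitals mark matches found on either strand, and all stretches read 5′ to 3′ on the gene's strand. The heat shock element searched had 3 units, GAA, TTC and GAA, with 2 bases of any kind between neighbours. The ER stress element searched was CCAAT and CCACG with 9 bases of any kind between them.
Hspd1, chr1:55087987-55088106, minus strand: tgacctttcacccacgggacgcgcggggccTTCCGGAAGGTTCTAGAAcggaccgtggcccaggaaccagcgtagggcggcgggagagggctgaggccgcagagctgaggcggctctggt
Dnajb6, chr5:29735778-29735897, plus strand: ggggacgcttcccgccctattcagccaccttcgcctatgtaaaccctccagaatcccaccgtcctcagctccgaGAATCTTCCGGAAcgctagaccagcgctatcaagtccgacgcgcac
Hspa5, chr2:34771970-34772089, plus strand: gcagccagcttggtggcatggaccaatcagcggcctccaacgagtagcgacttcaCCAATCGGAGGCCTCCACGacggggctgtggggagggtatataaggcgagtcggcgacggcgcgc
Hsp90b1, chr10:86705503-86705686, minus strand: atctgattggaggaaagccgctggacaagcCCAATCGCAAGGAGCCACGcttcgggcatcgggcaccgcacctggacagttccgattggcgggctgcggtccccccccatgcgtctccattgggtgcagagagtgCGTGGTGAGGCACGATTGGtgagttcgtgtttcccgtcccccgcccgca
Dnajc3, chr14:118937797-118937916, plus strand: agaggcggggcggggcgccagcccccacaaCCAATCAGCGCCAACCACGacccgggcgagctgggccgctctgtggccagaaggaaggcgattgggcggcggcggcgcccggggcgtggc

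The Hspd1 stretch lies between Hspd1 and Hspe1, which are transcribed away from each other from start sites 216 bases apart. Their windows overlap by 285 bases, so the capitals stand in both, and they form 4 alternating units, where a pair of overlapping 3-unit matches merge. Such a 4-unit run was present in 8 of 32851 RefSeq windows, among them those of Hspd1 and Hspe1. The 3-unit element was found in 4 of the 69 members (Hspd1, Hspe1, Dnajb6, Hsph1), or 5.80%, against 0.662% of 27025 genes. This share counts the site of Hspd1 and Hspe1 once for each gene. The Hsph1 match lies after its start site and is not printed. The ER stress element was found in Hspa5, Hsp90b1 (once on each strand) and Dnajc3, which is 4.35% of the 69, against 0.137% of all genes. The 2-unit forms, which every 3-unit match contains, were more common. GAANNTTC stood in 16 of the 69 members, or 23.2%, against 9.04% of genes. TTCNNGAA stood in 8 members, or 11.6%, against 9.60% of genes. Matches describe letters in these windows and not bound sites, and the many members without one may have elements elsewhere.

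Some facts of the arrays apply to every value below. All 24 poly-A spike-in probe sets, RNAs added before labelling, were lower on the Nell-1 array (median log2 ratio -0.49), as were all 18 hybridisation spike-ins (median -0.18). Their part in the results was not tested. The 3′ to 5′ signal ratios of the control probe sets, a measure of RNA integrity, were 0.848 with PBS and 0.858 with Nell-1 for Gapdh, and 1.32 and 1.28 for Actb. Mesenchymal and chondrogenic markers were detected on both arrays, for example Vim (38947 and 34271), Sox9 (3375 and 2577), Col2a1 (909 and 1206) and Acan (176 and 293), in differing directions, while Cdh1, Pecam1, Cdh5 and Ptprc, markers of epithelial, endothelial and blood cells, were below the median signal of 64.3. The epithelial marker Epcam was above it, at 466 with PBS and 370 with Nell-1.

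Most of the chaperone genes stayed within 1.5-fold between the arrays. Of 84 members, 6 were at least 1.5-fold higher with Nell-1, 8 at least 1.5-fold lower and 70 neither. The background in this comparison was 32.1% of all 18193 genes, with 13.1% higher and 19% lower, and the members' shares were 7.14% and 9.52%. That background includes many dim genes, which pass 1.5-fold more often, while 74 of the 84 members were at or above the median signal. The shares therefore do not compare genes of like signal. The median log2 ratio (Nell-1 over PBS) was 0.03 over the members and -0.06 over all genes. Members above 0 numbered 46 of 84, while 44.7% of all genes were above 0.

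Signal level sets how a ratio can be read. On these arrays 67.3% of genes with a mean signal below the median passed 1.5-fold in either direction, but 2.97% of the 4478 genes with a mean signal at or above 1000 did. At or above the median were 74 members, of which 4 were higher and 2 lower by 1.5-fold, beside background shares of 4.56% and 7.53%. A member can pass this limit through the array on which it is high, so these 6 are counted and not read as support. Of the 10 members below the median, 8 passed 1.5-fold. A mean signal at or above 1000 was reached by 46 members. Of those 46, Hsp90aa1 and Dnajc2 were higher by 1.5-fold and none was lower, against background shares of 1.7% higher and 1.27% lower. The median log2 ratio of the 46 was 0.13, beside -0.005 for all genes at that level, and 29 of the 46 were above 0, beside 49% of all such genes. As a yardstick, a robust SD of log2 ratios was taken from the median absolute deviation of all genes in each of 10 equal bins of signal. It mixes noise with real differences. Ratios larger than 1 robust SD of their bin were seen in 37 of 84 members, or 44.0%, beside 32.8% of all genes. Ratios over 2 robust SD were seen in 7 members, or 8.33%, beside 6.86%. The 7 were Hsp90aa1, Hspa4, Hspd1, Dnajc2, Dnajc22, Dnajb13 and Hspb7.

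**Figure D1:**
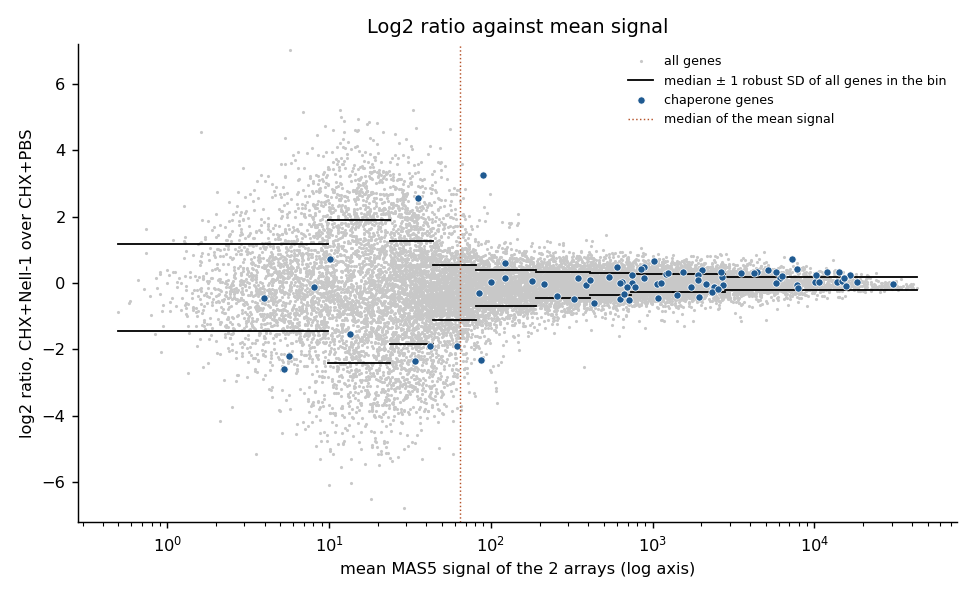
Log2 ratio of signal, CHX+Nell-1 over CHX+PBS, against the mean MAS5 signal of the 2 arrays (log axis). Grey points are all 18193 genes, blue points the 84 chaperone genes, and black lines mark the median ± 1 robust SD of all genes in 10 signal bins. The spread narrows to a robust SD of 0.19 in the brightest bin, which holds 25 of the chaperone genes.

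Both HSP90 genes among the members were higher with Nell-1. Hsp90aa1 encodes the stress-inducible cytosolic HSP90 alpha and Hsp90b1 encodes GRP94, its relative in the ER. The brightest Hsp90aa1 probe set read 5423 with PBS and 9044 with Nell-1. The next in brightness read 779 and 1740, and another 699 and 1225. The log2 ratios were 0.74, 1.16 and 0.81, beside a robust SD of 0.19 in the signal bin of the brightest probe set and 0.27 in the bin of the other 2. The remaining Hsp90aa1 probe sets were below the median signal and went opposite ways, at 66.6 and 36.2 and at 19.6 and 49.0. A count over all members left out such dim probe sets. Of members with at least 2 remaining, only Hsp90aa1 had all of them past 1.5-fold in the same direction. Hsp90b1 measured 10686 and 13348 on its brightest probe set, a log2 ratio of 0.32 that did not reach 1.5-fold. Its second probe set gave 1161 and 1660, or 0.52. All 5 probe sets of Hsp90aa1 and Hsp90b1 above the median signal were therefore brighter on the Nell-1 array. Hsp90ab1 was not analysed. Trap1, the mitochondrial HSP90 outside the rule, was at -0.26, with 0.04 on its second probe set.

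The chaperonin genes all had small ratios of the same sign. All 10 had a log2 ratio above 0, from 0.02 to 0.43 with a median of 0.19, and none reached 1.5-fold. All 10 had a mean signal over 1000, a level at which 49% of all genes were above 0 and 2.97% passed 1.5-fold. The mitochondrial members were Hspd1 and Hspe1, which encode HSP60 and its HSP10 lid. Hspd1 had a log2 ratio of 0.43 on its only probe set, with signals of 6675 (PBS) and 8998 (Nell-1). Hspe1 measured 9352 and 11118 on the brightest probe set, or 0.25, and 4116 and 6191 on the second, or 0.59, which passes 1.5-fold. These neighbours share the 4-unit heat shock run printed above.

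The 8 CCT genes encode the subunits of 1 ring complex, and their ratios ran from 0.02 to 0.33. Cct4 (12571 and 15814), Cct8 (5129 and 6395) and Cct6a (15219 and 17846) were at 0.33, 0.32 and 0.23. Tcp1, which encodes the alpha subunit, measured 14415 and 16104, or 0.16. Cct7 (14442 and 15032), Cct5 (13708 and 13969), Cct3 (10012 and 10186) and Cct2 (18098 and 18356) lay between 0.02 and 0.06, within the robust SD at their signal. The second probe sets were close to the first for Cct4 (0.35), Cct6a (0.24) and Cct2 (-0.01). Dim probe sets were less alike: a Cct4 probe set at 152 and 427 gave 1.49, and 1 at 926 and 828 gave -0.16. The 8 ratios stayed above 0 under each rescaling. With shared probe sets left out, Cct3 rested on a dim probe set (37.4 and 12.6) and turned to -1.57.

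**Figure D2:**
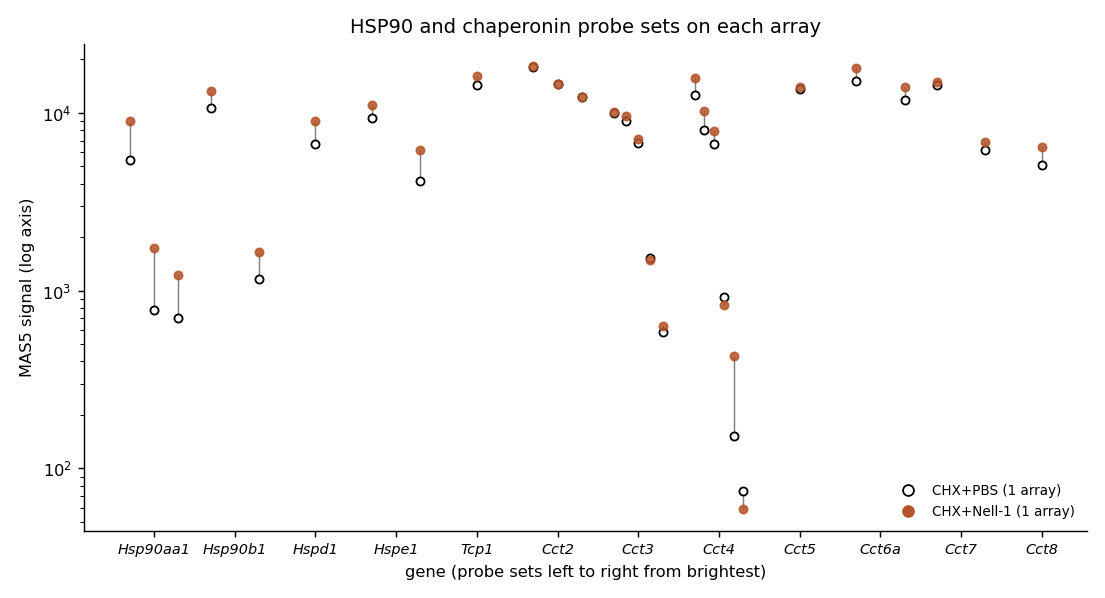
MAS5 signal (log axis) of every probe set above the median signal from the HSP90 and chaperonin members. Open points mark the CHX+PBS array and filled points the CHX+Nell-1 array, joined by a line per probe set. On all 3 Hsp90aa1 probe sets the CHX+Nell-1 point lies well above the CHX+PBS point, by log2 ratios of 0.74, 1.16 and 0.81, while the Cct2, Cct5 and Cct7 points nearly coincide.

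HSP70 and HSP110 genes lay on both sides of 0. None of the 14 was 1.5-fold higher, 1 was 1.5-fold lower (Hspa1l, with signals of 9.27 and 2.04 near the bottom of the range), and the median was 0.005. The shares over all genes were 13.1% higher and 19% lower. Those with positive ratios were led by Hspa13, an ER and microsome-associated HSP70 (724 with PBS and 971 with Nell-1), and Hspa4, an HSP110-type exchange factor (4450 and 5882), at 0.42 and 0.40. The other Hspa4 probe sets above the median signal were smaller or opposite, at 0.15 (1308 and 1454) and -0.16 (562 and 503). Hsph1, encoding HSP105, measured 2344 and 2939, or 0.33, and its second probe set gave 0.48. Hspa9, the mitochondrial HSP70 mortalin, measured 3813 and 4707, or 0.30, with 0.32 on its second probe set and -1.06 on another (698 and 335). Hspa14, a ribosome-associated HSP70, was at 0.20 (2497 and 2860), with 0.55 on its second probe set. Hspa5, the ER chaperone BiP, was at 0.16 (14366 and 16040), and its other probe sets gave 0.20 and 0.15.

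The classical heat-inducible HSP70 genes were not higher. Hspa1b measured 2704 with PBS and 2386 with Nell-1, or -0.18, with -0.23 and -0.25 on its other probe sets, and Hspa1a measured 293 and 222, or -0.40. Hspa1a and Hspa1b are near-identical copies, so probes may not separate them and the values are uncertain for each gene. Both windows hold the 2-unit GAANNTTC. Hspa8, the constitutive HSC70, differed by -0.02 (30927 and 30570), with a sign that turned under all 3 rescalings. Its other bright probe sets gave -0.18 (28639 and 25350) and -0.14 (25102 and 22798). Hspa2, best known from the testis, was at -0.32 (744 and 594). Hspa4l (215 and 213) and Hspa12a (98.8 and 100.7) were within 0.03 of 0, and Hspa12b was below the median signal.

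Dnajb1, the main cytosolic partner of inducible HSP70, measured 2762 with PBS and 2658 with Nell-1, or -0.06, and 2047 and 2034 on the second probe set. Hspb1, encoding HSP27, measured 16212 and 15291, or -0.08. Bag3, a co-chaperone of selective autophagy, measured 1790 and 1655, or -0.11. These 3 ratios are within 1 robust SD, and Dnajb1 crossed to 0.002 with median centring.

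The 4 DNAJA genes had ratios above 0, as did 45.8% of all genes at or above the median signal. Their median was 0.19. Dnaja1, a type I partner of cytosolic HSP70, was higher on all 3 probe sets: 3902 and 4906 (0.33), 1934 and 2613 (0.43), and 1832 and 2008 (0.13). Dnaja4 measured 498 with PBS and 702 with Nell-1, or 0.50, but its second probe set, with signals of 529 and 468, gave -0.18. Dnaja2 (10504 and 10784) and the mitochondrial Dnaja3 (639 and 657) were both at 0.04. As a mean over probe sets Dnaja3 turned to -0.02.

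Of 13 DNAJB genes 11 were below 0, as were 55.3% of all genes. Lower by 1.5-fold were 2, or 15.4%, beside 19% of all genes, and 1 of the 2 was below the median signal. The DNAJB median was -0.29, and it was -0.17 after quantile normalization, -0.11 as a mean over probe sets and -0.05 for the 4 genes with a mean signal at or above 1000. Dnajb13, a sperm flagellar protein gene with 1 probe set, read 146 with PBS and 29.4 with Nell-1. The Nell-1 value is below the median signal, so the size of this difference is unstable. Dnajb12, an ER membrane J protein gene, measured 838 and 586, or -0.52, while its second probe set gave -0.06. Dnajb5 was lower on all 3 probe sets, at 379 and 273, 296 and 216, and 85.9 and 73.2, with log2 ratios of -0.47, -0.45 and -0.23. Dnajb4 disagreed between probe sets, at 731 and 527 (-0.47) on the brightest and 119 and 172 (0.53) on the second. Dnajb9, an ER J protein induced by the unfolded protein response, measured 1575 and 1237, or -0.35.

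The exceptions among DNAJB genes were Dnajb11 and Dnajb14. Dnajb11, a lumenal ER partner of BiP, measured 1751 with PBS and 2295 with Nell-1, or 0.39. Dnajb14, an ER membrane protein gene, was at 0.05 (176 and 183). Dnajb6, an inhibitor of protein aggregation, was at -0.05 (7962 and 7683), with 0.06, -0.03 and 0.13 on its other probe sets. Its promoter holds the 3-unit element printed above, as do those of Hspd1 (0.43) and Hspe1 (0.25). Dnajb3 and Dnajb7 were below the median signal.

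The 27 DNAJC genes are a mixed class that shares little beyond the J domain, and 5 of them were 1.5-fold higher and 2 lower. Of all genes 13.1% were higher and 19% lower by this measure. The median signal was not reached by 2 of the 5, in a range where 67.3% of genes passed in either direction. The DNAJC median was 0.15, with 18 above 0, beside 44.7% of all genes. Dnajc2, which encodes the ribosome-associated J protein MPP11 (zuotin), measured 788 with PBS and 1258 with Nell-1, or 0.68, and 372 and 786 on the second probe set, or 1.08. Both are of a type shared between transcripts. A further Dnajc2 probe set, with signals of 121 and 95.7, gave -0.33, so the direction rests on the brighter 2. The functional partner of Dnajc2 at the ribosome is the product of Hspa14, which was at 0.20 and 0.55.

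The other DNAJC genes past 1.5-fold had dim or discordant probe sets. Dnajc22 was at 17.1 with PBS and 163 with Nell-1, and another probe set, dimmer than the median, read 27.1 and 23.3. Dnajc28 was at 97.6 and 149, or 0.61, with 73.7 and 36.6 on the second probe set, or -1.01. Dnajc11, a subunit of a complex linking the mitochondrial membranes, went from 519 to 344, or 1.51-fold lower, and its second probe set, at 176 and 217, gave 0.30. Below the median signal were Dnajc5b (10.2 and 60.7), Dnajc5g (7.67 and 12.6) and Dnajc6, which encodes the clathrin-uncoating protein auxilin (66.6 and 17.9).

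DNAJC genes with a mean signal at or above 1000 lay between -0.26 and 0.33, apart from Dnajc2. Dnajc9, a histone chaperone gene, measured 3116 with PBS and 3882 with Nell-1, or 0.32. Dnajc8, a spliceosome-associated gene, was at 0.22 (5801 and 6734), with 0.32 on its second probe set. Dnajc7, which binds HSP70 and HSP90 through tetratricopeptide repeats, was at 0.23 (1749 and 2049). Dnajc30, a mitochondrial J protein gene, was the second lowest above the median signal at -0.26 (2530 and 2111). Dnajc5, encoding the synaptic vesicle cysteine string protein, was at -0.04 (2176 and 2117), and its other 4 probe sets were between -0.48 and -0.02.

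Small HSP genes lay on both sides of 0. Of 8 small HSP genes, 5 were above the median signal, and none of these reached 1.5-fold, beside 12.1% of all genes above it. Hspb11, a component of intraflagellar transport despite its name, was at 0.29 (1122 and 1372) and Hspb6 at 0.10 (1853 and 1983). Hspb8, a partner of Bag3, was at -0.01 (5799 and 5772) and Hspb2 at -0.44 (1240 and 916). Hspb3 (56.6 and 11.0), Hspb7 (97.9 and 26.6) and Hspb9 (9.06 and 1.51) were below the median of mean signal and made up the 3 small HSP genes lower by 1.5-fold. Of all genes below that median, 39.2% were lower by 1.5-fold. The other Hspb7 probe sets, dimmer still, gave 2.13 and 1.13. The class median of -0.26 moved to -0.05 when low signals were raised to a floor and to -0.94 without shared probe sets.

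The BAG genes, which release substrates from HSP70, had a median of -0.06 and 1 of 6 above 0. Of all genes at or above the median signal, 45.8% were above 0. Bag1 was higher at 0.16 (5760 and 6428). Bag6, which guards hydrophobic proteins on their way to membranes, was the lowest at -0.42 (2213 and 1654). Bag2 was at -0.13 (2493 and 2282), and Bag4 (1067 and 1056) and Bag5 (742 and 740) were within 0.02 of 0 and turned above it with median centring. The other Bag4 probe sets disagreed, at -0.22 (393 and 338) and 0.71 (225 and 367), the last past 1.5-fold.

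**Figure D3:**
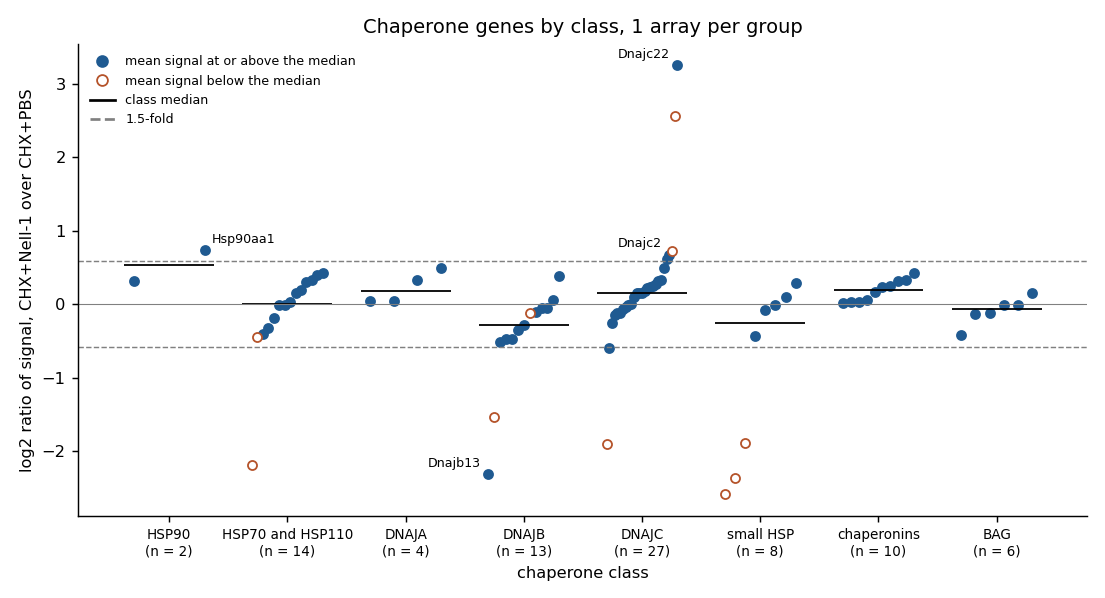
Log2 ratio of signal, CHX+Nell-1 over CHX+PBS, of each of the 84 chaperone genes by class, with class medians as black lines and dashed lines at 1.5-fold. Filled points are genes with a mean signal at or above the median and open points those below. All 10 chaperonin points lie above 0 and inside the dashed lines, 11 of 13 DNAJB points lie below 0, and 8 of the 10 open points lie beyond a dashed line.

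Members were also grouped by location, ER or mitochondrion, from textbook knowledge and after the values were seen. Of 12 ER genes, 9 were above 0, beside 45.8% of all genes above the median signal, and none passed 1.5-fold, beside 12.1%. Their median was 0.22 and their range from -0.52 to 0.49. Dnajc3, which encodes the kinase inhibitor and BiP partner p58IPK, was the highest, at 738 with PBS and 1039 with Nell-1, and its other 3 probe sets above the median signal gave 0.13, 0.15 and 0.57. Dnajc10, a disulfide reductase with a J domain, was at 0.33 (1364 and 1712), and Dnajc1, an ER membrane J protein gene that meets the ribosome, at 0.27 (1103 and 1332). The other Dnajc1 probe sets above the median signal disagreed, at -0.08 (396 and 376) and 0.77 (244 and 416). Dnajc25 was at 0.10 (398 and 425) and Dnajc16 at -0.06 (395 and 379). A second Dnajc16 probe set of similar brightness gave -0.54 (453 and 311). The 3 members whose promoters hold the ER stress element were at 0.16 (Hspa5), 0.32 (Hsp90b1) and 0.49 (Dnajc3). Of 7 mitochondrial members, 5 were above 0, beside 45.8% of all genes above the median signal, and their median was 0.15. Dnajc11, 1 of the 7, was lower by 1.5-fold on its brightest probe set (-0.59), beside 7.53% of all genes above the median signal.

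Other genes of the folding machinery came from lists chosen with earlier results of these data known. None of them passed 1.5-fold on its brightest probe set. The background in either direction was 12.1% of genes at or above the median signal and 2.97% of those at or above 1000. Ratios above 0 were seen in 45.8% of genes at or above the median signal and in 49% of those at or above 1000. Of 15 measured co-chaperones of HSP90 and HSP70 (17 listed), 7 were above 0 and the median was -0.01. Chordc1, an HSP90 co-chaperone gene with 1 probe set, was the highest at 0.41 (1071 with PBS and 1420 with Nell-1). Hspbp1, an exchange factor of HSP70, was the lowest at -0.41 (961 and 723), and Unc45a, a myosin chaperone gene, was at -0.33 (1104 and 876). The other Unc45a probe sets above the median signal gave -0.49 and -0.65, the last of them (469 and 299) past 1.5-fold. Fkbp5 was at -0.26 (1886 and 1578), while Stip1, the adaptor that links HSP70 to HSP90, was at -0.11 (3720 and 3454). Prefoldin and CCT-assisting genes had a median of -0.03 with 4 of 10 above 0. Among them Pfdn1 was at -0.24 (1905 and 1619) and Tbca, a tubulin cofactor gene, at 0.21 (5674 and 6540).

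Among 13 measured ER folding genes outside the chaperone families, 8 were above 0 and the median was 0.08. The share of all genes above 0 was 45.8% at or above the median signal. Sil1, the exchange factor of BiP, was at 0.32 (957 and 1193), and Hyou1, the HSP110 of the ER, at -0.32 (2356 and 1892). Ero1a, an oxidase of disulfide formation, was at 0.20 (1535 and 1766), and so was Canx, encoding the lectin chaperone calnexin (10526 and 12107). The 8 mitochondrial genes had a median of 0.002. Of these, Clpx was at 0.38 (605 and 790), Trap1, the mitochondrial HSP90, at -0.26 (1434 and 1195), the protease gene Lonp1 at -0.26 (1295 and 1083), and Grpel2, an exchange factor of mitochondrial HSP70, at 0.21 (856 and 991). Of 5 measured heat shock factors and regulators, Hsf2 was at -0.21 (272 and 236) and Hsbp1, encoding a small HSF1-binding protein, at 0.20 (8538 and 9785). Hsf4 was at 0.42 with signals of 69.0 and 92.4.

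Repeated probe sets of a gene gave a check on measurement within the same RNA. For 43 members at least 2 probe sets exceeded the median signal, and the log2 ratios of the brightest 2 shared a sign in 35, or 81.4%, beside 68.6% of 5195 genes overall. The median absolute difference between them was 0.11 for members and 0.20 for all genes. With both probe sets at or above a mean signal of 1000, 22 of 25 members had the same sign, or 88.0%, beside 80.2% of 1272 genes. No member had probe sets above the median signal past 1.5-fold in opposite directions. The check says nothing of the spread between cultures, and 31 members had a single probe set.

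**Figure D4:**
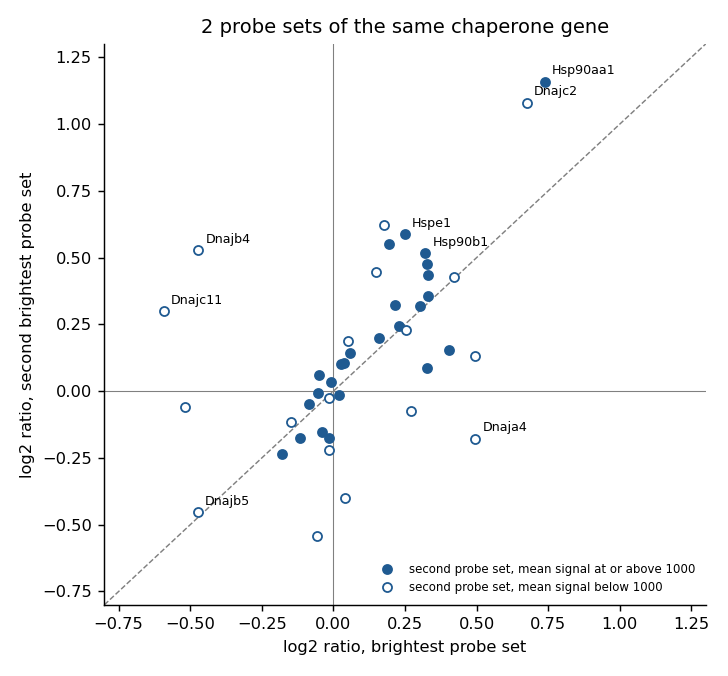
Log2 ratio, CHX+Nell-1 over CHX+PBS, of the second brightest probe set against the brightest for the 43 chaperone genes in which both exceeded the median signal. The dashed line marks equal ratios. Hsp90aa1 and Dnajc2 stand apart at the upper right, at 0.74 and 1.16 and at 0.68 and 1.08, while Dnajb4, Dnajc11 and Dnaja4 fall in quadrants of opposite sign.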

How the data were processed

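Total RNA was hybridised to 2 Affymetrix mouse expression arrays, 1 per group. The deposited values are linear MAS5 signal intensities per probe set. Per the submitters' processing notes, the tools were Expression Console and MAS5, without versions. The 2% trimmed mean was 500.0 on both arrays. Detection calls were not used here.

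Of 45101 probe sets, 64 controls were kept apart. The platform annotation gave 1 symbol to 34945, several to 932 and none to 9160, and the gene IDs of all 84 members were found in RefSeq's gene table (GRCm38.p6). Each gene's log2 ratio, CHX+Nell-1 over CHX+PBS, was taken from the deposited signals with no added constant. The threshold of 1.5-fold is the submitters' own. Genes named were all HSP90, chaperonin and BAG genes, HSP70 and HSP110 genes above the median signal, members past 1.5-fold, the 2 highest and 2 lowest of each class above the median signal, and up to 4 genes per further list. Others were named after their values were seen. The members and lists were chosen with earlier results of these data known. The code (Python 3.11.15, pandas 2.3.3, statsmodels 0.14.6) was tested on simulated data. Alternatives were 3 rescalings (median centring, quantile normalization, lowess), an added or a floor value of 17.9 (the 25th percentile of mean signal), signal filters, a 2-fold threshold, the mean over probe sets, and leaving out shared probe sets (suffixes _a, _s and _x).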

Additional observations from a re-analysis of the deposited data

How the results depend on the processing

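No paired analysis was possible because each group holds 1 array, and for the same reason no array could be left out. The median log2 ratio of the members stayed between 0.02 and 0.08 in 8 alternatives and was 0.13 for genes with a mean signal at or above 1000, a limit chosen after seeing the data. Among all 84 members, those 1.5-fold higher fell from 6 to 2 at that limit and to 2 at 2-fold, and rose to 9 as a mean over probe sets. Those lower fell from 8 to 5 with 17.9 added or used as a floor, to 2 above the median signal and to 0 at or above 1000. Without shared probe sets, which left 76 members, 9 were lower. Among the 74 members above the median signal, 4 higher became 7 as a mean over probe sets and 1 at 2-fold. In the same 74, 2 lower became 1 with each rescaling, with 17.9 added, as a mean over probe sets and at 2-fold. Without shared probe sets 66 of the 74 remained and 3 were lower. The lower gene lost with each rescaling was Dnajc11, which sat at the threshold. Of members past 1.5-fold, the direction reversed for Dnajc11 (0.16), Dnajc28 (-0.20) and Hspb7 (0.46) as a mean over probe sets, and for Dnajc2 (-0.33) without shared probe sets; the other probe sets of each differ. Over all members, 12 turned sign as a mean over probe sets, among them Dnajb4 (-0.47 to 0.63) and Hspa9 (0.30 to -0.17), 5 without shared probe sets, 9 with median centring and 4 with each other rescaling. Hsp90aa1 stayed past 1.5-fold, from 0.63 to 0.81, under the 7 alternatives to scaling, low values and probe set choice. Below the median signal, ratios are too unstable to give a direction.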
